A study of Homo sapiens with 6 samples.

Results

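Histones package DNA into nucleosomes, and most of them are made from small genes that lie together in clusters. The genes described here are the rows of the deposited tables whose symbol is H1-, H2AC, H2BC, H3C or H4C followed by digits alone. They numbered 65 of 42307 listed genes, with 10 linker histone H1 genes, 14 H2A genes, 16 H2B genes, 13 H3 genes and 12 H4 genes. RNA had been sequenced from U251, an established human glioblastoma cell line whose genotype the labels give as WT. The cells had been transfected with plasmids that overexpress STING, an adaptor in the sensing of DNA in the cytosol (STING-OE, 3 libraries), or with negative control plasmids (NC, 3 libraries). Both plasmids were used at 1 ug per well, and RNA was taken on day 3. The promoter that drives the plasmid is not given in the sources used here. The labels do not say that replicates were separate cultures, so p-values measure only the spread between these libraries, which may be technical.

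H2A, H2B, H3 and H4 form the protein core of the nucleosome, and H1 binds the linker DNA between cores. The replication-dependent genes for these proteins are transcribed in S phase, when new DNA needs new histones. Their mRNAs normally end in a stem-loop, bound by the stem-loop binding protein SLBP, in place of a poly(A) tail, and are not spliced. Many of the same genes also carry a poly(A) signal farther downstream, whose use gives a histone mRNA with a tail.

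The stem-loop is shown first because its sequence in H4 genes differed from that in the other types. It was searched in the GENCODE v29 transcripts (GRCh38) of the 59 genes of the chromosome 6 and chromosome 1 clusters found there. The pattern was GGC, C or T, CT, any 4 bases, AG, A or G, and GCC. Stems with other letters were not looked for. In 28 of them at least 1 transcript held it, and none of these was an H1 gene. Many models stop at the end of the coding sequence, so a gene without a match may only have a short model, or a stem outside the pattern. There were 6 distinct sequences of 16 bases. One example of each follows, 5′ to 3′, with the stem-loop in capitals and 5 bases on either side.
H2AC6, chr6:26124669-26124684, plus strand, the sequence found in 15 genes: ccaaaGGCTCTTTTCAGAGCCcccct
H4C8, chr6:26285131-26285146, minus strand, found in 4 genes: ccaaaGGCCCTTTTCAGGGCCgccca
H2BC5, chr6:26158587-26158602, plus strand, found in 4 genes: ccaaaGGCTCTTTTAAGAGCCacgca
H4C14, chr1:149833032-149833047, plus strand, found in 3 genes: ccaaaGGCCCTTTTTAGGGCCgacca
H3C6, chr6:26225596-26225611, plus strand, found in 1 gene: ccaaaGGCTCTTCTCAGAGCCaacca
H2AC11, chr6:27133515-27133530, plus strand, found in 1 gene: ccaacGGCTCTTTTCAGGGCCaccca
All 7 H4 genes with a match had a stem that opens with GGCCC, and 0 of the other matched genes did. The commonest sequence was shared by 5 H2A, 7 H2B and 3 H3 genes.

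A second end was found in the same transcripts. AATAAA or ATTAAA lay in the last 40 bases of a transcript of 22 cluster genes, and 19 of these had stem-loop and signal in 1 transcript. The ends of 3 such transcripts follow, with the signal in capitals, for the 3 genes whose counts are set out in full below.
H2AC6, chr6:26139084-26139113, plus strand: aggtAATAAAaggtaatgcaaagggagagg
H4C8, chr6:26281055-26281084, minus strand: aggtgAATAAAatcaggtcactcttctgct
H2BC5, chr6:26158611-26158640, plus strand: tttcAATAAAtgagttgtaatcatttcatt
Counted along the spliced transcript, the stem-loop lay 1128 bases before that end in H2AC6, 630 bases in H4C8 and 39 bases in H2BC5. In H2AC6 and H4C8 the sites lie farther apart in the genome, as their coordinates show.

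The tables gave whole-number read counts that summed to between 71498790 and 76566375 per library. CPM below are counts scaled to library size, with TMM factors. At these depths 3 counts, the upper limit that a count of 0 allows, corresponded to 0.0388 to 0.0423 CPM, which covers counting error only. Counts were uneven at the low end, where a value of 4 occurred 1.97 to 2.29 times as often as the average of its neighbours 3 and 5, so a low count may not stand for independent reads. STING1, the targeted gene, had 4327, 4226 and 3596 counts in STING-OE and 2660, 2628 and 2360 counts in NC (log2 fold change 0.60, edgeR adjusted p = 0.0022). Of 9 astrocyte and glioma markers found, GFAP was lower in STING-OE (21.5 ± 3.88 CPM) than in NC (39.0 ± 3.98 CPM; SD, n = 3 each, edgeR adjusted p = 0.033), and S100B and OLIG2 reached at most 0.331 CPM in a library. All 9 had a negative log2 fold change, 5 were lower at an unadjusted edgeR p under 0.05 and 5 were lower without overlap, against 7.2% and 9.73% of all tested genes; their part in the histone values was not tested. Of 5 markers of other cells 0 were called by edgeR at an adjusted p under 0.05, against 1.49% of all tested genes. At an unadjusted p under 0.05 there were also 0, against 7.17% higher and 7.2% lower of all tested genes. The leukocyte marker PTPRC averaged 2.16 ± 1.10 CPM in STING-OE and 4.80 ± 2.76 CPM in NC.

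Not every gene that meets the naming rule is clustered or replication-dependent. By the coordinates in the files 50 lay in a cluster on chromosome 6, 11 in a cluster on chromosome 1, and H1-8 and H1-10 as a pair on chromosome 3, while 2, H1-7 on chromosome 12 among them, stood alone. H1-10 is a linker histone made outside S phase as well, and it held 16.6% of all counts of the 65 genes. It had 5885, 5042 and 5369 counts in STING-OE and 5487, 5685 and 6052 counts in NC. Its level was 70.8 ± 5.70 CPM in STING-OE and 78.3 ± 3.19 CPM in NC (SD, n = 3 each), and the groups overlapped. The log2 fold change was -0.15 ± 0.0595 (SE; edgeR adjusted p = 0.26). Since genes outside the 2 large clusters can outweigh the rest, sums are given by type and by cluster.

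Of the 65 genes 63 were counted in at least 1 library and 47 in all 6. H1-1, a linker histone, and H3C11 had no count in any library. The filter of edgeR on low counts kept 42 genes and left out 23. Of the 42, 32 reached its cutoff of 0.132 CPM in every library, 3 did so in all STING-OE but not all NC libraries, 2 in all NC but not all STING-OE libraries, and 5 in neither full group. The 23 others never exceeded 24 counts in a library and summed to 0.917 ± 0.219 CPM in STING-OE and 0.964 ± 0.226 CPM in NC (SD, n = 3 each). They were H1-1, H1-3, H1-6, H1-7, H1-8, H2AC4, H2AC7, H2AC12, H2AC14, H2AC21, H2BC3, H2BC10, H2BC13, H2BC14, H3C1, H3C4, H3C7, H3C11, H4C1, H4C2, H4C6, H4C11 and H4C12. H2BC10 had 2, 4 and 2 counts in STING-OE against 14, 8 and 10 counts in NC, and H4C2 had 0, 0 and 2 counts in STING-OE against 4, 8 and 10 counts in NC. These 2 genes were chosen after their values were seen, and both stood lower in every STING-OE library, at levels that the filter keeps out of the test. Chosen in the same way, H2BC14 had 0, 0 and 0 counts in STING-OE against 1, 4 and 4 counts in NC, and H4C11 had 0, 0 and 0 against 2, 2 and 3 counts. No left-out gene had higher counts in every STING-OE library than in any NC library. Tallies of genes without overlap below cover tested genes only.

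The first question was whether histone mRNAs stood at another level in STING-OE cells. All 65 genes summed to 486, 439 and 459 CPM in STING-OE libraries and to 431, 449 and 422 CPM in NC libraries, a 1.06-fold ratio with overlap. Each of the 4 core histone types had a higher summed level in all 3 STING-OE libraries than in any NC library, by 1.17-fold to 1.30-fold, whereas linker histones did not. All H2A, H2B, H3 and H4 genes together summed to 145, 132 and 137 CPM in STING-OE libraries and to 116, 118 and 109 CPM in NC libraries. The groups did not overlap, and their means were 138 ± 7.05 CPM in STING-OE and 114 ± 4.50 CPM in NC (SD, n = 3 each), a 1.21-fold ratio. Sums are a description with no test, and in bulk RNA more cells in S phase and more histone RNA per cell cannot be told apart. Genes with identical transcripts may each have been credited with the same reads, which a sum would then count for each gene.

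H2A genes summed to 57.4, 47.9 and 52.8 CPM in STING-OE and to 43.5, 43.5 and 40.9 CPM in NC, a 1.24-fold ratio. H2AC6 gave 75.5% of all H2A counts, and without it the H2A sums overlapped, with a log2 ratio of -0.04. H2B genes summed to 46.8, 43.6 and 45.7 CPM in STING-OE and to 39.6, 39.97 and 36.5 CPM in NC, a 1.17-fold ratio. H3 genes, the lowest of the core types, summed to 11.7, 13.1 and 11.8 CPM in STING-OE and to 8.68, 9.30 and 10.2 CPM in NC, a 1.30-fold ratio. H4 genes summed to 29.6, 26.9 and 26.4 CPM in STING-OE and to 23.8, 24.8 and 21.3 CPM in NC, a 1.19-fold ratio. With H2AC6 left out, the other 54 core genes still summed to more in every STING-OE library (96.8 ± 4.23 CPM) than in any NC library (83.3 ± 3.35 CPM; SD, n = 3 each), a setting added after the data were seen. The 6 H1 genes of chromosome 6, nearly all H1-2, summed to 16.1 ± 0.973 CPM in STING-OE and 16.7 ± 0.473 CPM in NC, and these overlapped. H1-2, a replication-dependent linker histone, had 1247, 1108 and 1180 counts in STING-OE and 1165, 1176 and 1208 counts in NC (log2 fold change -0.07, edgeR adjusted p = 0.792).

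**Figure D1:**
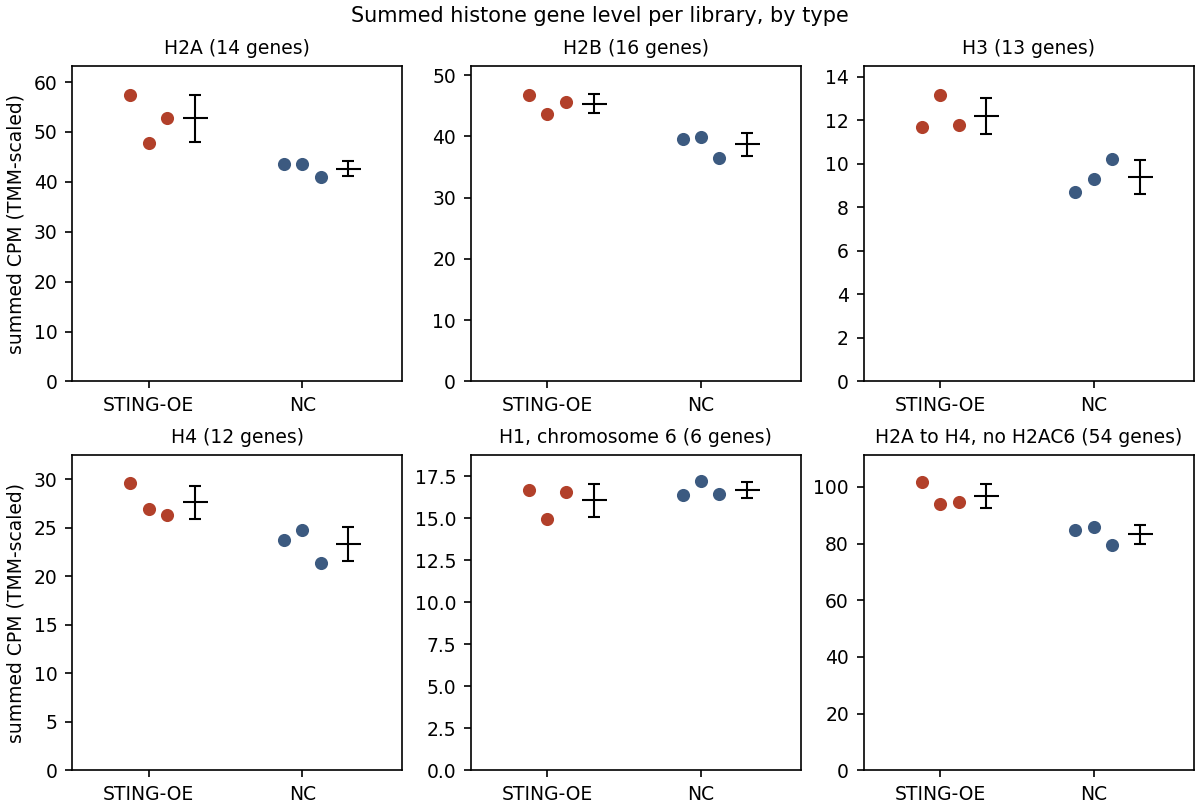
Summed CPM per library for the genes of each histone type, STING-OE on the left of each panel and NC on the right; points are libraries, and the bar is the mean with its SD. Core types stand higher in all STING-OE libraries, as do the 54 core genes without H2AC6, while the H1 genes of chromosome 6 overlap.

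The cluster on chromosome 6 summed to 121, 109 and 117 CPM in STING-OE and to 95.7, 102 and 95.1 CPM in NC, a 1.19-fold ratio without overlap. The cluster on chromosome 1 held 25.0% of the counts of both clusters and summed to 40.7, 37.5 and 36.1 CPM in STING-OE and to 36.2, 33.1 and 30.3 CPM in NC. Its 1.15-fold ratio was of similar size, but the lowest STING-OE library fell under the highest NC library. By type and cluster, the largest ratio was that of the 3 H3 genes on chromosome 1, at 1.63-fold (3.42 ± 0.462 CPM in STING-OE, 2.10 ± 0.502 CPM in NC), without overlap. Among these are H3C14 and H3C15, which have identical transcripts, so the sum may count the same reads for both. The 4 H2A genes on chromosome 1 stood at 6.85 ± 1.43 CPM in STING-OE and 6.71 ± 1.09 CPM in NC, and overlapped.

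Gene by gene, 1 of the 42 tested genes was called by edgeR's quasi-likelihood test at a Benjamini-Hochberg adjusted p under 0.05, against 1.49% of the 21679 genes tested. It was higher in STING-OE, a direction called for 0.604% of all genes, and 0 histone genes were called lower, against 0.89% of all genes. Without adjustment, 5 histone genes were higher and 1 was lower at a p under 0.05, against 7.17% and 7.2% of all genes. DESeq2 called 2, H2AC6 and H2BC5, but it also called more genes over the whole table than edgeR did. Of the 42, 30 had a positive and 12 a negative log2 fold change, where 50.2% of all genes were positive. The median was 0.22 for the tested histone genes and 0.00 for all tested genes. By type the medians were -0.07 for H1, 0.02 for H2A, 0.25 for H2B, 0.39 for H3 and 0.24 for H4. Without overlap and higher in STING-OE were 6 of the 42, H2AC6, H2BC5, H3C14, H3C15, H4C8 and H4C9, against 10.1% of all genes, and 0 were lower without overlap, against 9.73%. H3C14 and H3C15 have identical transcripts. What may be 1 signal is thus counted for each of them here, among the 5 without adjustment and in the H3 median.

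**Figure D2:**
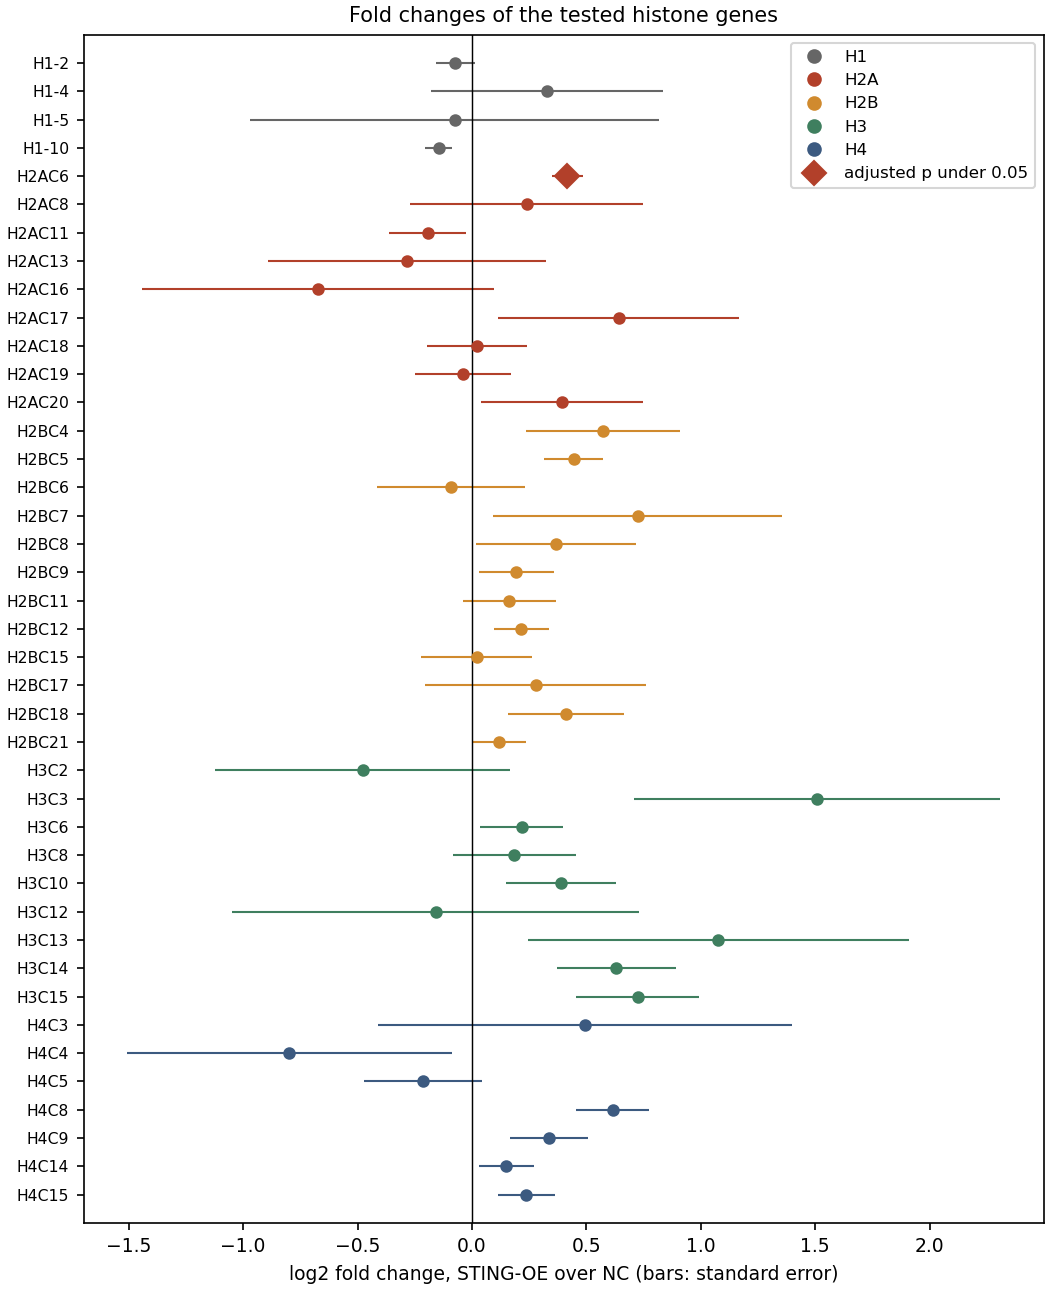
Log2 fold change, STING-OE over NC, of tested histone genes, coloured by histone type, with horizontal bars for the standard error; the diamond marks an edgeR adjusted p under 0.05. Most points lie right of 0, and H2AC6 is the only diamond.

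H2AC6, which encodes a canonical H2A, was the called gene and the most abundant cluster gene by CPM. It had 3372, 2916 and 3179 counts in STING-OE and 2274, 2261 and 2234 counts in NC. Its level was 41.1 ± 3.15 CPM in STING-OE and 30.8 ± 1.18 CPM in NC (SD, n = 3 each), higher in all 3 STING-OE libraries than in any NC library. The log2 fold change was 0.42 ± 0.0665 (SE), or 1.34-fold, with an edgeR adjusted p of 0.00538. It was called under all 15 alternatives run, with log2 fold changes of 0.37 to 0.48 and adjusted p-values of 5.43e-06 to 0.0499. The gene model spans chr6:26124145-26139116 on the plus strand, and both stem-loop transcripts of it continue past the stem-loop to a poly(A) signal, as printed above. Only 0.432% of the 50-base words of its longest transcript occur in another gene's transcripts. Of the 63 histone genes found in GENCODE v29, 16 shared over 50% of such words and 9 shared over 90%.

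H4C8 and H2BC5 came next. H4C8, an H4 gene at chr6:26277609-26285638 on the minus strand, had 391, 352 and 358 counts in STING-OE and 218, 201 and 269 counts in NC. H2BC5, an H2B gene at chr6:26158146-26171349 on the plus strand, had 562, 520 and 502 counts in STING-OE and 345, 366 and 401 counts in NC. Neither gene's groups overlapped, and neither passed the edgeR threshold. The log2 fold changes were 0.62 ± 0.16 for H4C8 and 0.44 ± 0.129 for H2BC5 (SE), with edgeR adjusted p-values of 0.0697 and 0.104. H4C8 passed with a stricter filter on low counts (adjusted p = 0.0324) and H2BC5 with DESeq2 (adjusted p = 0.028). Both settings also called more genes over the whole table. H2BC5 overlaps AL353759, a model on the opposite strand that stood at 1.91 ± 0.44 CPM in STING-OE and 1.07 ± 0.202 CPM in NC, and the strand setting of the counting is not given, so reads of this pair cannot be told apart. Their summed CPM was also higher in every STING-OE library.

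**Figure D3:**
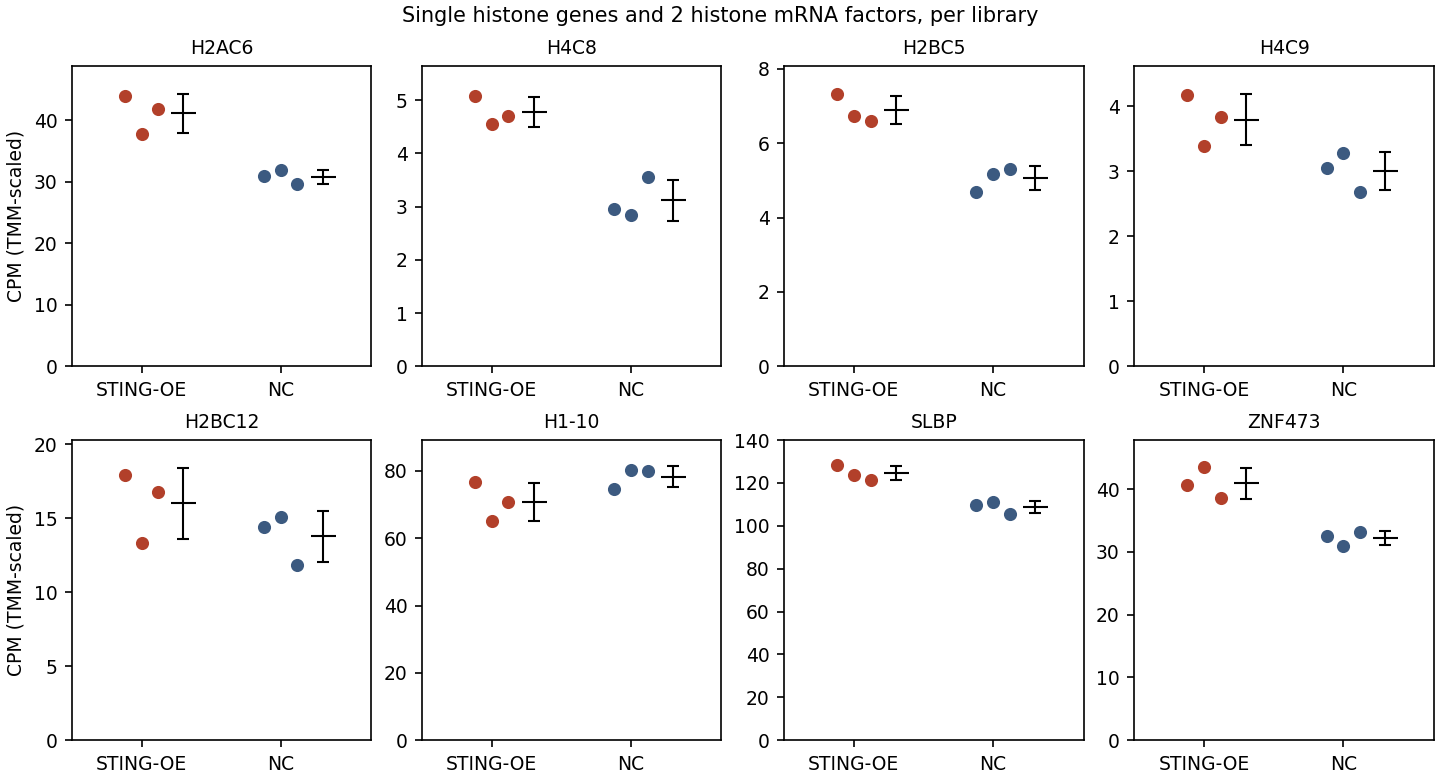
CPM per library of 6 histone genes and of SLBP and ZNF473, STING-OE left of NC in each panel; points are libraries and the bar is the mean with its SD. H2AC6, H4C8, H2BC5, H4C9, SLBP and ZNF473 show no overlap, while H2BC12 and H1-10 overlap.

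Among H2B genes, 11 of the 12 that passed the filter had a positive fold change, where 50.2% of all genes did, and 0 passed the threshold. H2BC7, one of the 11, reached the filter's cutoff in all STING-OE but not in all NC libraries, and H2BC10, lower in STING-OE, was left out by the filter. H2BC12, the cluster gene with the highest level per length, had 1375, 1030 and 1277 counts in STING-OE and 1060, 1070 and 893 counts in NC. The second STING-OE library fell below 2 NC libraries, and the log2 fold change was 0.22 ± 0.119 (SE, edgeR adjusted p = 0.452). Of the 50-base words of the longest H2BC12 transcript 74.1% occur in another gene's transcripts, so its counts may hold reads of other genes. H2BC21 stood at 7.84 ± 0.286 CPM in STING-OE and 7.22 ± 0.665 CPM in NC, with overlap. H2BC9 had a log2 fold change of 0.19, H2BC18 of 0.41, H2BC4 of 0.57 and H2BC7 of 0.72, with edgeR adjusted p-values of 0.676, 0.517, 0.486 and 0.688. With 1 library left out the values ran from 0.13 to 0.29 for H2BC9, 0.12 to 0.64 for H2BC18, 0.32 to 0.81 for H2BC4 and 0.40 to 1.02 for H2BC7. H2BC18 ran from 121 to 258 counts in STING-OE and from 123 to 146 counts in NC, so 1 STING-OE library lies under all of NC. Its model overlaps AC243772 on the same strand (0.820 ± 0.0656 CPM in STING-OE, 0.570 ± 0.148 CPM in NC). It also overlaps FCGR1A on the opposite strand (0.514 ± 0.265 CPM in STING-OE, 0.251 ± 0.0851 CPM in NC), so reads of these models may not be told apart.

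The other H2A genes divided by direction, with 4 positive and 4 negative. H2AC11 had 275, 267 and 219 counts in STING-OE and 254, 289 and 287 counts in NC (log2 fold change -0.19, edgeR adjusted p = 0.687). H2AC17, with 48, 24 and 27 counts in STING-OE and 13, 32 and 15 counts in NC, had the largest positive value, 0.64 (adjusted p = 0.662), and its groups overlapped. Of its 50-base words 86.3% occur in another gene's transcripts, and its model overlaps that of H3C12 on the same strand. H2AC18 and H2AC19 lie on opposite strands of chromosome 1, and the transcript of H2AC18 is contained whole in that of H2AC19. Together they had 595, 358 and 429 counts in STING-OE and 535, 363 and 432 counts in NC. The log2 fold change of H2AC18 was 0.02, and its sign changed under 4 of 15 alternatives.

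H3 genes had the highest median of any type on low counts. H3C14 and H3C15, on chromosome 1, have identical transcripts of 1656 bases, so counts of each are uncertain. In STING-OE, H3C14 had 107, 145 and 117 counts and H3C15 had 109, 142 and 112 counts. In NC, H3C14 had 90, 60 and 78 counts and H3C15 had 87, 53 and 70 counts. Whether the same reads were credited to both genes was not tested, and their sum would then count such reads for each gene. That sum was 216, 287 and 229 counts in STING-OE and 177, 113 and 148 counts in NC. It stood at 3.18 ± 0.472 CPM in STING-OE and 1.99 ± 0.407 CPM in NC (SD, n = 3 each), 1.60-fold higher without overlap. Singly, the log2 fold changes were 0.63 and 0.72, with edgeR adjusted p-values of 0.266 and 0.206. H3C14 also overlaps H4C14, and H3C15 overlaps H4C15, each on the opposite strand.

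H3C6, the most abundant H3 gene, had 294, 344 and 348 counts in STING-OE and 206, 318 and 285 counts in NC. Its groups overlapped, with a log2 fold change of 0.22 (edgeR adjusted p = 0.674). H3C10 had a log2 fold change of 0.39 (adjusted p = 0.515) and also overlapped. The largest fitted changes among H3 genes, 1.51 for H3C3 and 1.08 for H3C13, rested on 4 to 44 and on 1 to 31 counts per library, overlapped between groups and had adjusted p-values of 0.425 and 0.633. With 1 library left out they ran from 0.78 to 2.51 for H3C3 and from 0.46 to 1.81 for H3C13. H3C13 reached the filter's cutoff in all STING-OE but not in all NC libraries, and H3C3 in neither full group. Of the 50-base words of the H3C13 transcript 80.4% occur in another gene's transcripts.

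Among H4 genes, H4C14 and H4C15 gave most counts and share an identical stretch that covers the shorter transcript. Their sum was 1426, 1358 and 1248 counts in STING-OE and 1157, 1194 and 1007 counts in NC. In CPM the pair stood at 17.5 ± 1.07 in STING-OE and 15.3 ± 1.80 in NC, and the lowest STING-OE library lay under the highest NC library. H4C9 had 320, 262 and 291 counts in STING-OE and 224, 232 and 203 counts in NC. No NC library reached a STING-OE library, and its log2 fold change was 0.34 ± 0.17 (SE, edgeR adjusted p = 0.391). H4C4 had the most negative value among the tested genes, -0.80 ± 0.708 (adjusted p = 0.697), on 17, 7 and 6 counts in STING-OE and 19, 16 and 15 counts in NC. This gene reached the filter's cutoff in all NC but not in all STING-OE libraries.

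By the median, the level of a cluster gene went with the end of its annotated transcripts. The labels name an Illumina TruSeq RNA kit but do not say whether RNA was selected by its poly(A) tail. The 22 genes with a poly(A) signal had a median of 1.49 FPKM, the authors' counts per length and depth, and 14 of them reached 1 FPKM. The 37 genes without such a signal had a median of 0.158 FPKM, and 4 reached 1 FPKM. H2BC12 (27.8 FPKM) and H1-2 (19.9 FPKM) gave 77.8% of the counts of the genes without a signal. The other 35 gave 6.14% of the counts of both clusters, and the highest of them was H4C9 at 2.42 FPKM. Summed FPKM lay closer between the classes than the medians did. In STING-OE they were 68.2 ± 3.92 with a signal and 61.05 ± 5.51 without, and in NC 55.7 ± 2.24 and 55.6 ± 3.99 (SD, n = 3 each). H3C2 and H3C3 were not found in GENCODE v29. H4C11, the lowest gene with a signal, differs from the others in that its hexamer lies before its stem-loop. These levels are the authors' values averaged over all 6 libraries. The classes come from GENCODE v29, in which many models end with the coding sequence. Of the 63 histone genes found there, 30 had the same start and end as in the deposited data. The comparison is thus a description.

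**Figure D4:**
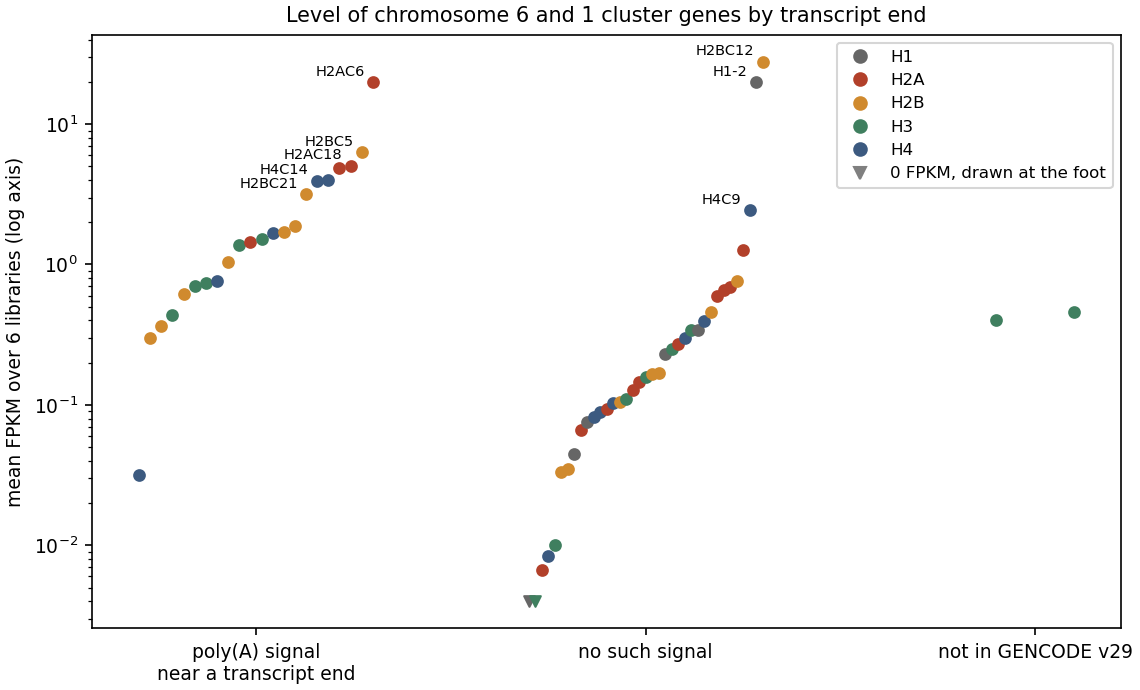
Mean FPKM over the 6 libraries (log axis) of the 61 genes of the chromosome 6 and 1 clusters, by whether a GENCODE v29 transcript has a poly(A) signal in its last 40 bases; within each class genes are ordered by level, and colours give the type. Of the genes without a signal, H2BC12 and H1-2 stand far above the others; H1-1 and H3C11, at 0, are drawn at the foot.

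Between the groups, genes with a signal summed to 118, 110 and 110 CPM in STING-OE and to 93.6, 94.4 and 89.3 CPM in NC, a 1.22-fold ratio without overlap. Genes without a signal summed to 43.4, 36.5 and 42.7 CPM in STING-OE and to 37.8, 40.3 and 35.6 CPM in NC, a 1.08-fold ratio with overlap. Without H2BC12 and H1-2, a choice made after the values were seen, the other 35 summed to 9.51 ± 0.814 CPM in STING-OE and 7.97 ± 0.538 CPM in NC (SD, n = 3 each), 1.19-fold higher without overlap. The difference between the classes was not tested.

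Histone genes of 2 types often start back to back and share 1 promoter region. The clusters held 10 pairs with starts under 500 bases apart on opposite strands, 9 of them an H2A and an H2B gene. H2BC17 was paired both with H2AC17 and with H3C12, whose model overlaps that of H2AC17, so these pairs are not separate regions. Levels within a pair could differ greatly. H2AC6 and H2BC4 share 218 bases, and H2AC6 averaged 36.0 CPM over the 6 libraries where H2BC4 averaged 0.953 CPM. H2BC12 and H2AC12 share 250 bases and averaged 14.9 CPM and 0.0355 CPM. H2BC11 and H2AC11, with 291 bases between them, were closer at 2.16 CPM and 3.54 CPM, and their log2 fold changes were 0.16 and -0.19. As CPM do not correct for length, these values compare reads and not molecules.

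The shared regions of the first 2 pairs are printed from the RefSeq promoter table (GRCh38.p14), 5′ to 3′ along the strand of the named gene. Capitals mark matches to 3 motifs, a CCAAT box, a TATA box and the core of the octamer of H2B promoters, whose letters are given with their counts. Each was looked for on either strand, and a run in capitals can hold overlapping matches.
H2AC6, chr6:26123922-26124171, plus strand: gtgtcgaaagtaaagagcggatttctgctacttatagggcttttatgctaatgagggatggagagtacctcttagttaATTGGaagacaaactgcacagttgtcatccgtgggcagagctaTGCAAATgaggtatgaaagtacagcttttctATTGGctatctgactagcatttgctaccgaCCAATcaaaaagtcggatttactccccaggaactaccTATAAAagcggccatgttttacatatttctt
H2BC12, chr6:27146856-27147105, minus strand: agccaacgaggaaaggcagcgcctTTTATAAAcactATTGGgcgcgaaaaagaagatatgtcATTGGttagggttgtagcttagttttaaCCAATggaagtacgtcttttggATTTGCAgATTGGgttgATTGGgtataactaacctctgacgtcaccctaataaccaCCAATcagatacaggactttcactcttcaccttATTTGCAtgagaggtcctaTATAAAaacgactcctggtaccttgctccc
Of the 65 genes 59 had an entry in that table. In the 250 bases before the start, CCAAT was found in 50 of the 59 genes, against 32.0% of all 35116 promoters. It was present in 13 of 13 H2A, 16 of 16 H2B and 11 of 11 H3 genes, and in 2 of 10 H4 genes. ATTTGCA, the octamer core, was found in 24 genes, 10 of H2A, 13 of H2B and 1 of H3, against 3.67% of all promoters. Windows of back-to-back genes overlap, so 1 site can be counted for both an H2A and an H2B gene, and gene tallies are not tallies of sites. The H3 gene is H3C4, whose match lies in an entry identical to that of H2AC7 and not in the entry at its other start. TATAAA, the TATA box, was found in 39 genes, against 10.7%. H4C8, second to H2AC6 in its unadjusted p, held none of the 3 in its window. A match is a run of letters and not a shown binding site.

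The other genes of histone mRNA biology were counted in lists. The list of factors for histone gene transcription and for the processing, translation and decay of histone mRNA had 41 members, of which 40 were tested. Called higher were 2, against 0.604% of all genes, and 0 were called lower by edgeR, against 0.89%. At an unadjusted p under 0.05, 6 were higher and 0 lower, against 7.17% and 7.2% of all genes. The list's median log2 fold change was 0.05, with 34 of 40 positive.

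SLBP, which binds the stem-loop, had 9850, 9582 and 9246 counts in STING-OE and 8081, 7861 and 7989 counts in NC (125 ± 3.32 CPM and 109 ± 2.76 CPM; SD, n = 3 each). ZNF473, a zinc finger protein of the U7 snRNP machinery that cuts histone pre-mRNA, had 3119, 3367 and 2934 counts in STING-OE and 2394, 2196 and 2510 counts in NC. Both genes were higher in every STING-OE library, with log2 fold changes of 0.19 ± 0.0461 and 0.34 ± 0.0629 (SE; edgeR adjusted p = 0.0481 and 0.0135). The calls depended on single libraries. SLBP had an adjusted p of 0.0949 to 0.223 without STING-OE library 2 or 3 or any 1 NC library, and ZNF473 of 0.0544 to 0.103 without STING-OE library 2 or any 1 NC library. SLBP also missed the threshold with upper-quartile scaling (0.055) and limma-voom (0.0812). TUT7, a terminal uridylyl transferase of histone mRNA decay, came after them with 0.16 (adjusted p = 0.163). NPAT, the activator of histone gene transcription, averaged 44.8 ± 3.84 CPM in STING-OE and 43.9 ± 1.10 CPM in NC, with overlap; it was named after its values were seen.

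Of 48 S-phase genes 2 were called higher, DTL and SLBP, and 0 lower, against 0.604% and 0.89% of all genes. DTL, a ubiquitin ligase subunit that removes the licensing factor CDT1, had 134 ± 3.14 CPM in STING-OE and 113 ± 2.79 CPM in NC (SD, n = 3 each; log2 fold change 0.24, edgeR adjusted p = 0.0164). Its adjusted p was 0.0711 to 0.118 without STING-OE library 2 or any 1 NC library. ORC6, a subunit of the origin recognition complex, stood at 0.20 (adjusted p = 0.0556). The list's median was 0.04, with 33 of 48 positive, and 12 were higher and 1 lower at an unadjusted p under 0.05, against 7.17% and 7.2% of all genes. The part of these values in the core histone sums was not tested.

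Of 12 replication-independent variants, H1-10 among them, 0 were called by edgeR, against 1.49% of all genes. DESeq2, which called more genes over the whole table, called 1. At an unadjusted p under 0.05, 4 were lower and 0 higher, against 7.2% and 7.17% of all genes. Of the 12, 9 had a negative log2 fold change, and the list's median was -0.06. H3-3A, which encodes the variant H3.3, had 170 ± 2.92 CPM in STING-OE and 186 ± 4.98 CPM in NC (log2 fold change -0.13, edgeR adjusted p = 0.161), without overlap. H2AX and H2AZ2 were at -0.13 and -0.10 (adjusted p = 0.255 and 0.258). Of 27 chaperones 1 was called higher and 0 lower, against 0.604% and 0.89% of all genes. Without adjustment, 3 were higher and 2 lower at a p under 0.05, against 7.17% and 7.2% of all genes. The called one was SPTY2D1, a nucleosome-binding H3 and H4 chaperone, with 64.0 ± 4.65 CPM in STING-OE and 50.9 ± 0.436 CPM in NC (log2 fold change 0.33, edgeR adjusted p = 0.00996). Without STING-OE library 2 or any 1 NC library its adjusted p was 0.0513 to 0.0687. DNAJC9 was at 0.15 and IPO4, an importin for histones, at -0.25 (adjusted p = 0.172 and 0.17), and the list's median was 0.01.

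RNAs with ends other than a poly(A) tail were set beside the histone genes. The list also holds H19, which has a tail, and NEAT1, whose short form has a tail and is not told apart in a gene count. Of 12 tested, 1 was called lower and 0 higher, against 0.89% and 0.604% of all genes, and the median was -0.18. The called one was MALAT1, a nuclear RNA whose end is a triple helix, at 746 ± 10.5 CPM in STING-OE and 1043 ± 106 CPM in NC (SD, n = 3 each; log2 fold change -0.48, edgeR adjusted p = 0.0022). Its adjusted p was 0.0739 without STING-OE library 1 and 0.055 with a GC and length correction. RN7SK had 295, 278 and 226 counts in STING-OE and 187, 164 and 224 counts in NC (log2 fold change 0.41, adjusted p = 0.312), and NEAT1 was at -0.11 (adjusted p = 0.275). The slope of a library's deviation from its group mean on GC content was 0.0508, -0.0400 and -0.0108 log2 per 10 percentage points in STING-OE and -0.00727, 0.0184 and -0.0111 in NC, and its part in these values was tested only by the GC and length correction.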

How the data were processed

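The labels' protocols give Trizol extraction of total RNA and an Illumina TruSeq RNA kit used with 1 ug. Bowtie 0.12.2 stands in the submitters' processing notes. The sources used here name no counting program, annotation, build or strand setting. Per the file headers, the deposited tables hold the authors' read counts per Ensembl gene, their FPKM values and gene coordinates. Of the 65 genes 63 were found in GENCODE v29, 34 with an equal start or end, and coordinates are those of the deposited tables, read as GRCh38.

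The count test was the quasi-likelihood test of edgeR 4.0.16 (R 4.3.3; filterByExpr, TMM factors, robust fit, two-sided, Benjamini-Hochberg adjustment over all tested genes, threshold 0.05), with both groups of 3 libraries and no covariate. Standard errors follow from the fold change and the F value and are approximate. Sums of CPM were described without a test. FPKM served for levels between genes and as an alternative. Clusters join genes on 1 chromosome with gaps under 5 Mb. As alternatives, scaling was changed to RLE, upper quartile or library totals, the filter was dropped or made stricter, DESeq2 1.42.0 or limma-voom (limma 3.58.1) was used, the replicate number entered as a block, GC content and length were corrected for, and each library was left out. Sums were also formed from the deposited FPKM and without the most abundant gene. Procedures were tested on simulated data first.

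The genes and lists were chosen with earlier results of these data known. Named are STING1, called histone genes, the 3 most abundant of each type, the 10 others with the smallest unadjusted p, and in each list the called genes and the 3 with the smallest unadjusted p. GFAP, S100B, OLIG2, PTPRC, NPAT, AL353759, AC243772, FCGR1A, H2BC10, H4C2, H2BC14, H4C11, H2BC11, H2BC17, H3C2, H3C4, H3C12 and H2AC19 were named after their values were seen. Values of 1 further gene are not reported here.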

Additional observations from a re-analysis of the deposited data

How the results depend on the processing

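H2AC6 was called under all 15 alternatives. The number of histone genes called was 1, or 2 with a stricter filter and with DESeq2. Over all genes 324 were called (131 higher, 193 lower); total-count scaling, which moved the median of all genes to 0.03, gave 246 higher and 138 lower. The total was 686 with a stricter filter, 1032 with DESeq2, 137 with limma-voom, 120 with the replicate block, 493 with the GC and length correction and 60 to 741 with 1 library left out. Same-numbered libraries had correlations of their deviations of 0.0551, 0.0231 and 0.0172, so the numbers were not taken as pairs. Under the block the 1 histone call remained H2AC6.

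Of the lists, the histone mRNA factors had 2 calls, but 1 with upper-quartile scaling or limma-voom, 0 with the replicate block and 0 to 2 with 1 library left out. S-phase genes had 2, but 1 with upper-quartile scaling or limma-voom, 7 with DESeq2, 0 with the block, 4 with the GC and length correction and 0 to 5 with 1 library left out. Variants had 0, but 1 with DESeq2 and 2 with the GC and length correction. Chaperones had 1, and 0 to 1 with 1 library left out. The list of RNAs with other ends had 1, but 0 with the GC and length correction and 0 to 1 with 1 library left out.

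The median log2 fold change of the tested histone genes, 0.22, was 0.18 to 0.32 with 1 library left out and highest without NC library 2. The log2 ratio of all summed histone genes, 0.09, became 0.24 with the chromosome 6 and 1 clusters alone, a choice added after the data were seen; that of H1, 0.02, became -0.053 there and -0.13 without its most abundant gene. Without the most abundant gene that of H2A became -0.036 and that of chromosome 6 0.16. Sums of H2A, H2B, H3, H4 and chromosome 6 kept their lack of overlap under the 3 other scalings and the deposited FPKM. Leaving out the most abundant gene gave no value for chromosome 3 or for genes outside clusters. The log2 fold change of H2AC18 turned to -0.0022 with limma-voom and was -0.22 to 0.18 with 1 library left out, below 0 without STING-OE library 1 (-0.22), NC library 2 (-0.09) or NC library 3 (-0.02). The causes were not tested. Genes near the filter's cutoff carry few counts, and their standard errors are wide.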
